A study of Drosophila melanogaster with 3 samples.

Results

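In the Iso-seq isoforms of Drosophila heads, 44 pairs of convergent genes had 3′ terminal exons that overlapped. The count is that of the coordinates as deposited, and it is 135 when the left end of each isoform, which lies 1 nt right of the annotated start in this file, is moved by that 1 nt, because 91 more pairs then share exactly 1 nt. A pair was taken when a plus-strand gene and a minus-strand gene of 1 chromosome, the plus-strand gene starting at the lower coordinate, each had a multi-exon isoform and the last exons of both shared 1 nt or more. The 44 pairs held 88 of the 3795 genes with a multi-exon isoform (2.32%, 95% Wilson interval 1.89 to 2.85), and no gene sat in more than 1 pair. The deposited exon coordinates chose the pairs, so the overlap lengths below describe the pairs and were not tested.

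Convergent genes are transcribed towards each other, and when both messenger RNAs run past the point where they meet, their 3′ untranslated regions (UTRs) become complementary. Such transcript pairs are called cis-natural antisense transcripts. In flies, overlapping 3′ UTRs are a known source of endogenous siRNAs, which Dcr-2 cuts from double-stranded RNA and loads into AGO2. The choice of poly(A) site of either gene decides whether the transcripts of the pair overlap at all.

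The data come from 3 Iso-seq libraries (PacBio long reads of full-length cDNA) of heads of untreated 3-day-old adult w1118 flies, the white-eyed laboratory strain, kept at 25 °C. The libraries were amplified with 14 PCR cycles and size selected for transcripts larger than 3 kb. Their reads were pooled into 1 set of isoforms. Most multi-exon isoforms in it were shorter than 3 kb, with an upper quartile of 2716 nt for the overlapping isoforms and 2920.5 nt for the others. The file gives the exons of each isoform but no read counts, so no replicate spread, level or test between samples could be given, and an isoform without 2 full-length reads is not in it. The labelled tissue was checked against marker genes, and isoforms were found for 7 of 7 photoreceptor markers, 3 of 6 neuronal markers, 4 of 5 glial markers, 5 of 6 muscle markers, 4 of 5 fat body markers and 0 of the 4 germline markers that could be matched. The neuronal markers elav, brp and para and the glial marker repo had no isoform.

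The overlaps were 52 to 725 nt long, with a median of 209.5 nt, or of 1 nt over the 135 pairs found with left ends moved. The quartiles lay at 134 and 307 nt, and the overlaps summed to 10487 nt. An overlap of 100 nt or more was found in 36 pairs, of 200 nt or more in 22, of 300 nt or more in 11 and of 400 nt or more in 6. All 44 pairs lay tail to tail, with neither gene inside the other, and all 88 genes are annotated as protein-coding. Chromosome arm 2L held 14 pairs, 3L held 9, X held 8, 3R held 7, 2R held 6 and chromosome 4 held 0. Convergent neighbours with both genes detected numbered 61 on 2L, 66 on 3L, 60 on X, 79 on 3R, 67 on 2R and 9 on chromosome 4. Of the 44 pairs, 3 are not among these neighbours, CG15141/Dif on 2L and CG32815/CG3704 and Tsf1/Nt5b on X.

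**Figure D1:**
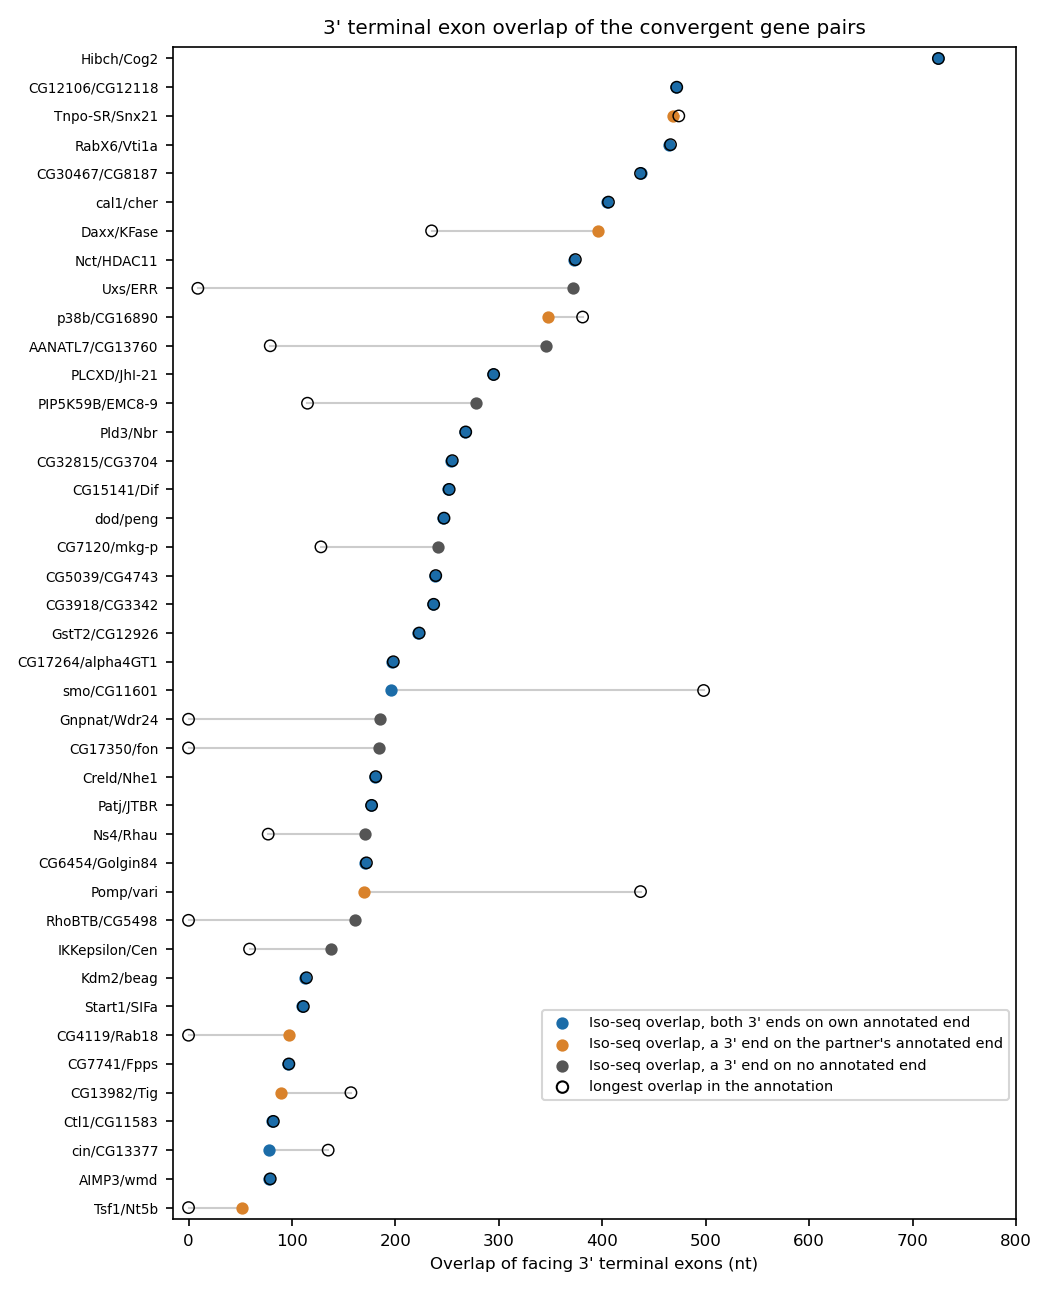
Overlap of the facing 3′ terminal exons (nt) in 41 of the 44 pairs, plus-strand gene named first, sorted by length. Filled circles give the overlap of the Iso-seq isoforms, coloured by whether both 3′ ends lie on annotated 3′ ends of their own genes, and open circles give the longest overlap in the annotation. Filled circles run from 52 nt (Tsf1/Nt5b) to 725 nt (Hibch/Cog2), and 5 open circles sit at 0.

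The longest overlap, 725 nt on 3R (dm6 15358539 to 15359263), lay between Hibch, an enzyme of valine breakdown, and Cog2, a subunit of the Golgi tethering complex COG. It took up the whole last exon of Hibch and 66.9% of the 1084-nt last exon of Cog2. The next, 471 nt on X (9194751 to 9195221), joined CG12106 and CG12118 and covered the whole last exon of CG12118. Tnpo-SR, the import receptor for SR splicing factors, and Snx21, a sorting nexin, shared 468 nt on 2L (2763611 to 2764078). RabX6, a Rab GTPase, and Vti1a, a SNARE of Golgi and endosome traffic, shared 465 nt on 3L (691487 to 691951). CG30467 and CG8187 shared 437 nt on 2R, all of the last exon of CG30467.

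The centromere assembly factor cal1 and the actin crosslinker cher, which is filamin, shared 405 nt on 3R (17091534 to 17091938). The overlap made up 11.9% of the 3399-nt last exon of cal1 and 58.6% of the 691-nt last exon of cher. Daxx, a histone chaperone, and KFase, the kynurenine formamidase of tryptophan breakdown, shared 396 nt on 2L. KFase was deposited under the identifier FBgn0031821, which the annotation used here lacks, and was recognised by its transcript identifier. Nct, the nicastrin subunit of gamma-secretase, and HDAC11, a histone deacetylase, shared 373 nt on 3R, while Uxs, which makes UDP-xylose, and ERR, a nuclear receptor, shared 372 nt on 3L. The stress kinase p38b shared 348 nt with CG16890, AANATL7 shared 346 nt with CG13760, and PLCXD shared 294 nt with JhI-21, a subunit of an amino acid transporter.

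By known function, the remaining genes covered many parts of the cell, grouped here from background knowledge with no enrichment test. Chromatin and transcription genes included Kdm2, a histone demethylase, whose last exon shared 113 nt with that of beag, and the NF-kappaB factor Dif of the Toll pathway, which shared 251 nt with CG15141. Signalling genes included the Hedgehog transducer smo (196 nt with CG11601), the kinase IKKepsilon (138 nt with Cen) and the lipid kinase PIP5K59B (278 nt with EMC8-9). Traffic genes were represented by the Golgi tether Golgin84 (171 nt with CG6454) and the small GTPase Rab18 (97 nt with CG4119). Genes of metabolism included Fpps, the farnesyl pyrophosphate synthase of the mevalonate pathway (96 nt with CG7741), GstT2, a glutathione S-transferase (222 nt with CG12926), and cin, an enzyme of molybdenum cofactor synthesis (78 nt with CG13377). Nbr, the exoribonuclease Nibbler that trims the 3′ ends of small RNAs, shared 267 nt with Pld3.

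The gene of the neuropeptide SIFamide, SIFa, which is made in a few brain neurons, shared 110 nt with Start1, a gene of the START lipid-transfer family (2R, 24577567 to 24577676). The overlap was 34.9% of the 315-nt last exon of SIFa and 35.4% of the 311-nt last exon of Start1. The sodium-proton exchanger Nhe1 shared 180 nt with Creld, the polarity scaffold Patj shared 176 nt with JTBR, and alpha4GT1 shared 197 nt with CG17264. Pomp, a proteasome assembly factor, shared 170 nt with vari, a septate junction scaffold. The other pairs in this middle range were CG32815/CG3704 with 254 nt, CG3918/CG3342 with 236 nt and CG7120/mkg-p with 241 nt.

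Overlap was partial for 81 of the 88 last exons. Over the 88 last exons the median share inside the overlap was 30.04%, with 35 exons under 25% and 21 over 50%, and the lowest share, 4.27%, was that of Kdm2. In 7 pairs the last exon of 1 gene lay entirely inside that of its partner. In 37 pairs the overlap ran from the 3′ end of the minus-strand gene to the 3′ end of the plus-strand gene.

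**Figure D2:**
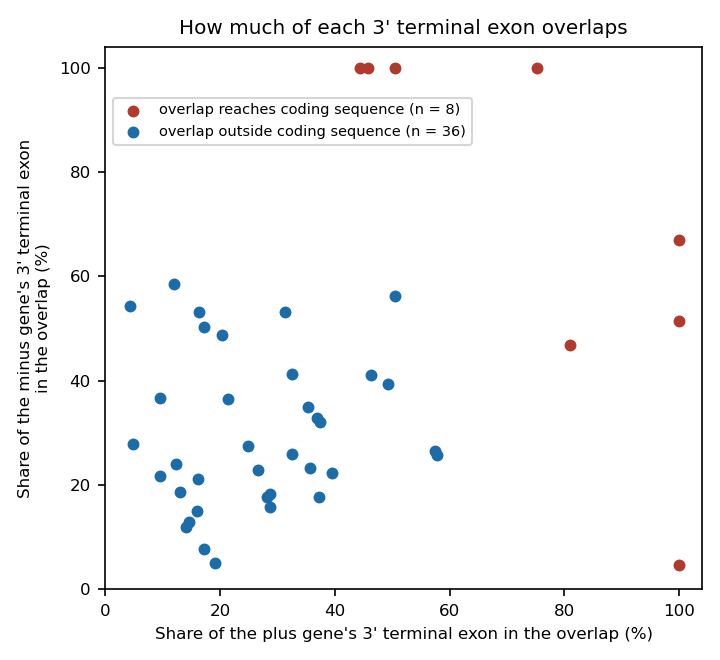
Share of the plus gene's 3′ terminal exon (x axis, %) and of the minus gene's 3′ terminal exon (y axis, %) that lies in the overlap, 1 point per pair. Of the 8 pairs whose overlap reaches annotated coding sequence, 7 have an exon at 100%, and the 36 others lie below 60% on both axes.

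The overlap covered no annotated coding sequence in 36 pairs and reached coding sequence in 8. CG30467 had 360 coding nt inside the overlap, CG12118 had 303, Hibch had 273, peng had 186 of an overlap of 246 nt, CG4743 had 115 of 238 nt, and Rhau, a DEAH-box helicase, had 79. These 6 genes were among the 7 whose last exon lay wholly inside the partner's. In a further pair, GstT2 had 97 coding nt and its partner CG12926 had 2 in the overlap, the only pair with coding sequence of both genes. The partners of the 6 genes were CG8187, CG12106, Cog2, dod, which encodes a prolyl isomerase, CG5039 and Ns4. Of the 88 facing 3′ ends, 79 stopped short of the partner's annotated stop codon, by a median of 111 nt and as little as 3 nt, and 9 lay past it.

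Compared with the annotation (Ensembl, BDGP6.54), 38 of the 44 pairs also had overlapping 3′ terminal exons there and 6 did not. In 23 pairs the Iso-seq overlap was within 1 nt of the longest annotated overlap, in 14 it was longer and in 7 it was shorter. Among the 6 pairs without annotated overlap were Gnpnat/Wdr24 with 185 nt, CG17350/fon with 184 nt, RhoBTB/CG5498 with 161 nt, CG4119/Rab18 with 97 nt and Tsf1/Nt5b with 52 nt. Gnpnat acetylates glucosamine phosphate on the way to the sugar donor of chitin and glycans, Wdr24 is a subunit of the GATOR2 complex that controls TORC1, fon encodes a clotting protein and Tsf1 encodes transferrin. For Uxs/ERR the overlap was 372 nt against 9 nt annotated, and for AANATL7/CG13760 it was 346 nt against 79 nt. Longer overlaps were also found for Daxx/KFase (396 nt against 235 nt), PIP5K59B/EMC8-9 (278 nt against 115 nt), CG7120/mkg-p (241 nt against 128 nt), Ns4/Rhau (171 nt against 77 nt) and IKKepsilon/Cen (138 nt against 59 nt). Shorter overlaps than annotated included those of smo/CG11601, with 196 nt against 498 nt, and Pomp/vari, with 170 nt against 437 nt.

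The 3′ ends behind the overlaps fell into 3 kinds when each was compared with annotated 3′ ends at 0 nt tolerance. The pairs used 88 distinct 3′ ends, 1 per gene. Of these, 62 lay exactly on an annotated 3′ end of their own gene (70.5%, 60.2 to 79.0), against 2443 of 4117 other multi-exon 3′ ends of the file (59.3%, 57.8 to 60.8). A further 14 lay exactly on an annotated 3′ end of the partner gene, and 12 lay on no annotated 3′ end. So 14 of the 26 member ends off their own annotation sat on the partner's (53.8%, 35.5 to 71.2), whereas 458 of 1674 such ends elsewhere in the file sat on the annotated 3′ end of an opposite-strand gene (27.4%, 25.3 to 29.5). Since only facing genes were chosen as members, and a gene without a facing neighbour has no such end to sit on, the shares are descriptions and were not tested.

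**Figure D3:**
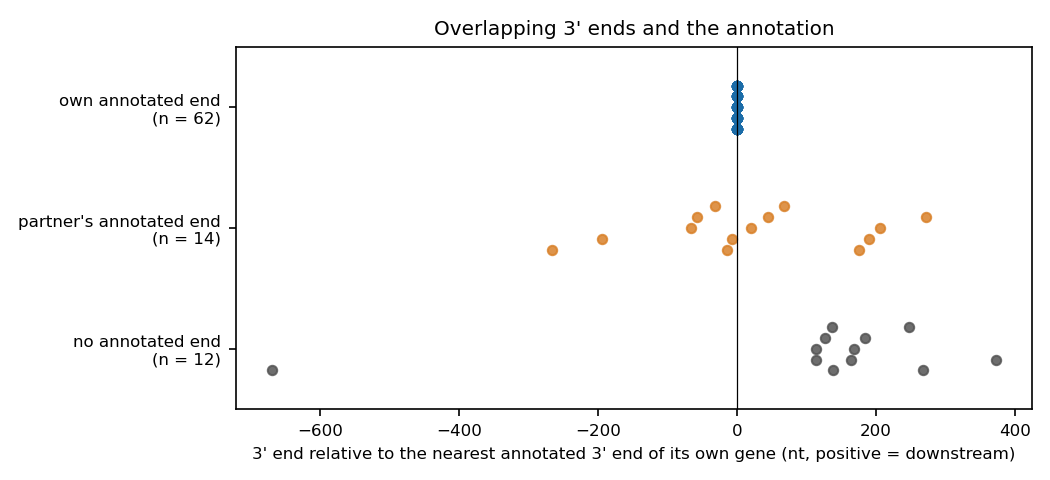
Distance of each of the 88 overlapping 3′ ends from the nearest annotated 3′ end of its own gene (nt, positive is downstream), by kind of end; points are spread vertically for display. The 62 ends on their own annotation sit at 0, the 14 on the partner's annotated end lie from 266 nt upstream to 272 nt downstream, and 11 of the 12 on no annotated end lie downstream.

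Tnpo-SR ended 189 nt downstream of its own nearest annotated end, at an annotated end of Snx21, and Snx21 ended 194 nt upstream of its own, at an annotated end of Tnpo-SR. The same exchange was seen in Daxx/KFase, where Daxx ended 14 nt upstream of its own nearest annotated end and KFase 176 nt downstream. Rab18 ended 272 nt downstream of its annotation at an annotated end of CG4119, and Tsf1 ended 206 nt downstream at an annotated end of Nt5b. Pomp ended 266 nt upstream of its annotation at an annotated end of vari. CG13982 ended 67 nt upstream at an annotated end of Tig, an integrin ligand. These annotated ends are not those at which the partner's head isoform stopped. ERR, whose end lay on no annotated one, ran 372 nt past its own annotation, AANATL7 ran 268 nt, CG17350 ran 184 nt and CG5498 ran 168 nt. Why ends coincide with those of the facing gene to the nucleotide was not tested. In 25 pairs both ends lay on their own annotated ends, and these 25 alone had a median overlap of 236 nt.

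Few isoforms avoided the overlap. In 37 pairs each gene had 1 multi-exon isoform, so the file holds no other isoform that could avoid it. The other 7 pairs had 2 combinations of isoforms each, and in 5 of them both combinations overlapped with the same 3′ end. The 2 isoforms of Hibch differed by 3 nt in spliced length (1698 and 1701 nt), those of CG12118 were 1276 and 1259 nt long, and those of RhoBTB were 3510 and 3300 nt long. Patj had isoforms of 3 and 2 exons and vari had isoforms of 10 and 9 exons, again with 1 shared 3′ end per gene. Over all pairs, 49 of 51 combinations overlapped.

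The 2 exceptions were both plus-strand genes with an isoform that stopped before the partner. In the pair described here, Gnpnat had an isoform of 6 exons whose 322-nt last exon ended at 29742089 on 3R and shared 185 nt with Wdr24. Its other isoform, of 5 exons with a different last exon of 755 nt, ended at 29741904, and Wdr24 began at 29741905, the next nucleotide, so this isoform avoided the overlap with no gap. The Wdr24 end lay 68 nt past its own annotation, on the annotated end of the 5-exon Gnpnat isoform. If the left ends of isoforms are moved by the 1 nt that separates them from the annotation in this file, this isoform shares 1 nt with Wdr24, and 0 of the 44 pairs keeps an isoform outside the overlap.

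**Figure D4:**
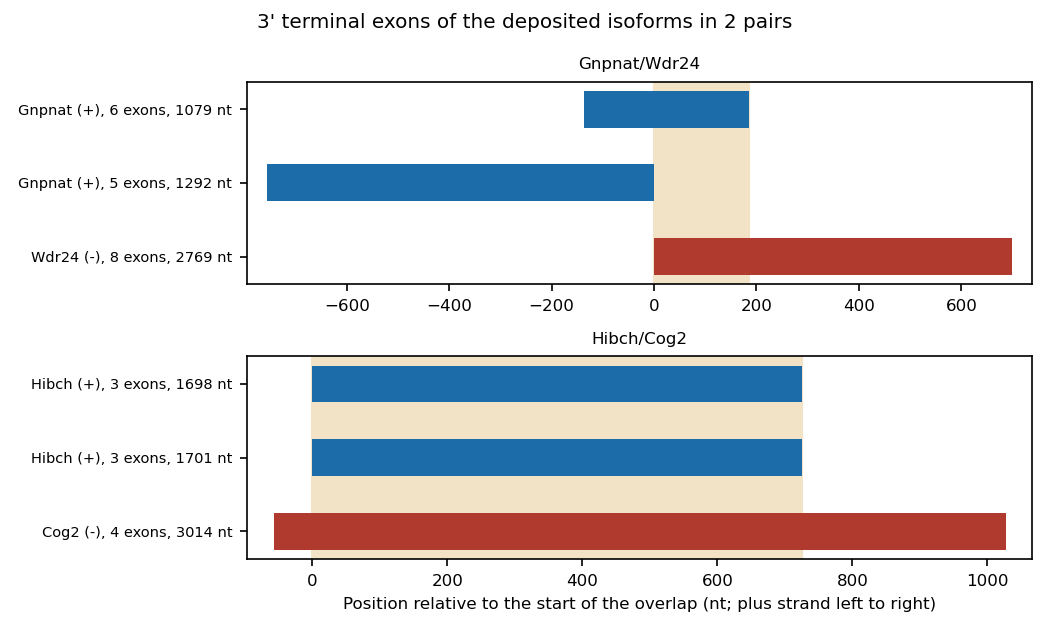
3′ terminal exons of every deposited multi-exon isoform of Gnpnat/Wdr24 and Hibch/Cog2, drawn to scale in nt from the start of the overlap (shaded); blue bars are plus-strand and red bars minus-strand genes, labelled with exon number and spliced length. The 5-exon isoform of Gnpnat stops where the partner's exon begins, and both Hibch isoforms end at the same place inside Cog2.

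In the annotation, 38 pairs had more than 1 combination of transcripts, and in 27 of those every combination overlapped. Some but not all combinations overlapped in 6 pairs, among them 2 of 4 for Tnpo-SR/Snx21, Daxx/KFase and CG13982/Tig, 4 of 8 for Nct/HDAC11 and 3 of 4 for CG15141/Dif. In the heads each gene of these named pairs had 1 multi-exon isoform, the one that made the overlap. The file therefore could not show an avoiding isoform for them.

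Members with few isoforms were usual: 7 of the 88 genes had 2 or more multi-exon isoforms (7.95%, 3.91 to 15.5), against 588 of 3707 other genes (15.9%, 14.7 to 17.1). The intervals overlap at their edges, which is no test of the difference. Of the 93 isoforms in the overlaps, 88 had an annotated splice chain, the ordered set of their junctions (94.6%, 88.0 to 97.7), against 3669 of 4600 other isoforms (79.8%, 78.6 to 80.9). The overlapping isoforms had a median of 3 exons and 1881 nt, the others 4 exons and 2044 nt. Median last exons were 705 nt in the pairs and 665 nt elsewhere, a length the choice of pairs favours. These differences were not tested, since isoforms of 1 gene or pair are not independent.

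Convergent neighbours were also compared with the annotation. It holds 3826 consecutive convergent pairs of protein-coding genes on the chromosome arms, of which 1356 (35.4%) have overlapping last exons. Both genes had a multi-exon isoform in 342 of these pairs, and 41 of them (12%) overlapped in the heads as deposited. The annotated share counts an overlap between any annotated transcripts of both genes, whereas most genes had 1 multi-exon isoform in the heads. The shares of 35.4% and 12% are therefore unlike measures. With left ends moved by 1 nt, 127 of the 342 overlapped (37.1%, 32.2 to 42.4). Of the 130 pairs that the annotation lets overlap, 36 overlapped (27.7%, 20.7 to 35.9), 44 met with 0 nt between them and 50 lay apart. With left ends moved, 80 of these 130 overlapped (61.5%, 53.0 to 69.5). The 3 members outside this count, CG32815/CG3704, CG15141/Dif and Tsf1/Nt5b, are not consecutive protein-coding neighbours in the annotation.

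In the coordinates as deposited, the threshold of 1 nt fell in an empty stretch of the distribution, next to a sharp peak. The shortest overlap was 52 nt for Tsf1/Nt5b, and other short ones were 78 nt for AIMP3/wmd and for cin/CG13377, 81 nt for Ctl1/CG11583 and 89 nt for CG13982/Tig. No overlap was 1 to 51 nt long. Just outside, 86 of the 342 neighbours (25.1%) had exactly 0 nt between their facing ends. The next were Xrp1/Mpc1 with a gap of 7 nt, then dpr18/Nipsnap with 61 nt and Usp47/CG10576 with 77 nt. Of the 36 neighbours annotated to overlap by 1 to 51 nt, 29 met at 0 nt, 6 lay apart and 1, Uxs/ERR, overlapped. With left ends moved by 1 nt the threshold fell on the peak itself, and the number of pairs was 135 in place of 44.

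**Figure D5:**
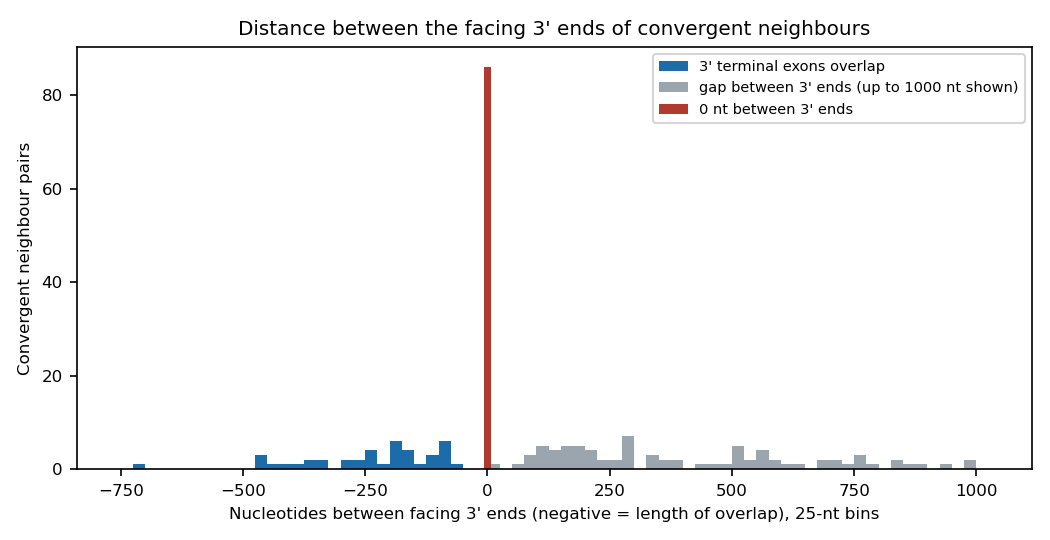
Number of convergent neighbour pairs with both genes detected (y axis) by the distance between their facing 3′ ends (x axis, nt, 25-nt bins, negative values are overlap lengths). Blue bars are the 41 overlapping neighbours, grey bars gaps of up to 1000 nt, and the red bar at 0 marks the 86 pairs whose ends touch. In the coordinates as deposited, no pair has an overlap shorter than 52 nt.

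Counted over all genes and not only annotated neighbours, 91 pairs with 182 genes touched in this way, and none of these genes belonged to the 44 pairs. In 88 of the 91 exactly 1 of the facing ends lay on an annotated end of its own gene, the plus-strand end in 48 and the minus-strand end in 40; both did in 2 and neither in 1. The 90 ends off their own annotation were upstream of it in 38 cases, by a median of 30 nt, and downstream in 52, by a median of 49.5 nt. Because the left end of an isoform in this file lies 1 nt right of the annotated start, each touching pair shares exactly 1 nt once that offset is removed, and the number of pairs is then 135 in place of 44. Of the 91 pairs, 46 overlap in the annotation, 44 of them by 2 nt or more.

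Touching pairs held 182 of the 3795 genes with a multi-exon isoform. By list they held 3 of 17 photoreceptor, 4 of 20 proteasome, 4 of 34 respiratory complex and 3 of 53 cytosolic ribosomal protein genes. They also held 1 of 29 translation factor genes and 1 of 6 cleavage and polyadenylation genes. None of the 10 synaptic, 9 clock, 22 mitochondrial ribosomal protein, 15 vacuolar ATPase or 10 transfer RNA ligase genes was in one. No difference was tested. Of the photoreceptor genes, Gbeta76C, the beta subunit of the eye G protein, met verm at 19689992 on 3L. The rhodopsin gene Rh6 met the neuropeptide gene Trissin at 15484699 on 3R. The scaffold gene inaD met RpL23 at 22855689 on 2R, where RpL23 stopped 6 nt short of its annotated end. Cpsf5, a subunit of cleavage factor I, which sets 3′ ends, met the tubulin acetyltransferase gene Atat on 3L, with Cpsf5 41 nt upstream of its nearest annotated end and 240 nt of overlap in the annotation.

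The functional lists were little represented. None of the listed genes with a multi-exon isoform was in the 44 pairs: 0 of 17 photoreceptor, 0 of 10 synaptic and 0 of 9 clock genes. The same held for 0 of 6 cleavage and polyadenylation genes and 0 of the 2 genes found from the endo-siRNA list, AGO2 and Adar. Dcr-2, r2d2, loqs, Hen1, blanks and Dcr-1 of that list had no isoform. At the share of 2.32% over all genes these lists are too short to show a difference. No member came from the 22 mitochondrial ribosomal protein genes, the 34 genes of respiratory complexes, the 29 translation factor genes, the 20 proteasome genes, the 15 vacuolar ATPase genes or the 10 transfer RNA ligase genes. Genes known by CG numbers only made up 25 of the 88 members and 1062 of the 3795 genes.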

How the data were processed

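The authors pooled the Iso-seq replicates, mapped the consensus reads with STARlong (dm6) and built isoforms with FLAIR, which drew on short-read junctions and known promoters and required 2 full-length reads or more. The methods describe a 3′ end filter, and the sources used here do not say if these isoforms passed it. The deposited values are exon start and end coordinates, a unit other than expression, for 5272 isoforms in 25067 exon lines, and depth per library is unknown. Of these, 4700 multi-exon isoforms of 3795 FBgn genes were used, leaving out 269 single-exon isoforms and 303 at loci with no identifier. Of 24 genes absent from the annotation (Ensembl, BDGP6.54), 19 were matched by transcript identifier. Left isoform ends lay 1 nt right of an annotated start in 3685 of 4693 isoforms and equalled one in 27, and right ends equalled an annotated end in 3675. Overlaps used coordinates as deposited, while 3′ ends were compared with annotated ones after removing that 1 nt. The reported overlap is the longest over isoform combinations. Annotated neighbours were consecutive protein-coding genes by midpoint. Wilson intervals (95%) cover counting error only and were computed with scipy 1.17.1 in Python 3.11.15. No test was made, because the 3 libraries are pooled. The pair rule was tested on simulated isoforms.

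Named were the 12 longest and 6 shortest overlaps, the closest pairs without overlap, pairs with several isoform combinations, avoiding isoforms, coding overlap or listed genes; others named were chosen after their values were seen. Of the pairs, 3 are counted but not reported by name here. Members, lists and the rule were chosen with earlier results of these data known.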

Additional observations from a re-analysis of the deposited data

Results flagged for a closer look

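Single-exon isoforms, which the pairs above do not use, added 13 convergent pairs when each was placed on the annotated strand of its gene. Overlaps in these pairs were 1 to 143 nt, and 10 of the 13 also overlap in the annotation. In 8 the plus-strand gene had the single-exon isoform and in 5 the minus-strand gene. The longest were Lsd-1/CG10214 with 143 nt, twit/CG14400 with 126 nt and Oli/CG6870 with 102 nt. Genes of mitochondrial proteins in them included mRpS23 (79 nt with Polr2C), mRpL4 (64 nt with CG4278) and mRpS2 (61 nt with CG11927). ND-13B (56 nt with CG11811) and ND-B16.6 (8 nt with CG3847) were others. These genes were picked by function, and no share over all genes was counted. A multi-exon isoform carries its strand in its splice sites and a single-exon isoform does not, so these pairs rest on the annotation. No control samples bear on them, and the difference from the 44 pairs was not tested.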

How the results depend on the processing

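Moving left isoform ends by 1 nt raised the number of pairs to 135, lowered the median overlap to 1 nt, raised the pairs with an avoiding isoform to 11 (none of them among the 44) and the pairs overlapping in the annotation to 84. The same move, chosen for these shares after seeing the data, raised overlapping convergent neighbours to 37.1% and, of those annotated to overlap, to 61.5%. Minimum overlaps of 10 or 50 nt and a strict tail-to-tail rule changed none of the 4 values, and merging 3′ ends within 150 nt, run for avoiding isoforms only, left that count at 2. With single-exon isoforms there were 57 pairs, and without 3′ ends over 150 nt from annotation 32. Leaving out all gene identifiers that the annotation lacks, also those matched by transcript identifier, gave 43 pairs and lost Daxx/KFase. After seeing the data, isoforms were also limited to 3′ ends exactly on their own annotation, which left 25 pairs, all 25 overlapping in the annotation, and 0 with an avoiding isoform. Leaving out ends that lay only on an opposite-strand gene's annotated end gave 32 pairs and 0 with an avoiding isoform. Except when left ends were moved, the median stayed between 171 and 236 nt. The limits are pooling, unknown depth and the size selection: an isoform with too few reads is not listed, so an avoiding isoform can be missed. Poly(A) signals at the ends, with 5 alternatives, were planned and not run, because no genome sequence was used here. No paired analysis was possible because the 3 libraries form 1 group and their isoforms are pooled.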

Other observations

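Of the convergent neighbours annotated to overlap, the 50 that lay apart in the heads included AGO2, the Argonaute that carries endogenous siRNAs. AGO2 and CG7739 have 317 nt of annotated overlap, but their head isoforms were 885 nt apart. AGO2 ended 1201 nt short of its most distal annotated end and CG7739 ended on its own. Each had 1 multi-exon isoform here, and an overlapping isoform with too few reads would not be listed. AGO2 was picked from the 50 for its function. SPR, the sex peptide receptor gene, and frma were 472 nt apart against 999 nt of annotated overlap. The widest gap among neighbours with over 300 nt of annotated overlap was 23030 nt between zfh2 and Tdg on chromosome 4.

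Isoform ends with 0 nt between them were counted in each orientation of consecutive detected genes. There were 89 among 1006 convergent pairs, 16 among 1003 divergent pairs, 1 among 900 tandem pairs on the plus strand and 1 among 875 on the minus strand. Gaps of 1 to 50 nt numbered 1, 1, 1 and 0 in that order. The cause was not tested.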
